A study of Mus musculus with 16 samples.

Results

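The genes described here encode the glutamate side of the synapse. They are 39 of the 45706 gene rows measured, chosen by gene symbol from a list of glutamate receptor subunits, glutamate transporters and postsynaptic scaffold proteins. They comprise 4 AMPA, 5 kainate, 6 NMDA, 1 delta and 7 metabotropic receptor genes, 3 vesicular transporters, 1 plasma membrane transporter, 4 auxiliary subunits and 8 scaffold or kinase genes. Glutamate is the main excitatory transmitter of the brain. AMPA receptors carry fast excitation, NMDA receptors admit calcium on coincident activity, and kainate receptors act on both sides of the synapse. Metabotropic receptors couple to G proteins, and most of them dampen transmitter release. Vesicular transporters load glutamate into vesicles and so mark neurons that release it, whereas scaffold proteins of the Dlg, Shank and Homer families hold receptors in the postsynaptic density.

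RNA came from mouse hypothalamus by bacTRAP, in which GFP-tagged L10a ribosomal protein is expressed only in cells with Cre recombinase and their ribosomes are precipitated with anti-GFP antibodies. Here Cre followed Pnoc, the gene of prepronociceptin, so that the pulldown sampled every Pnoc-expressing cell type of the hypothalamus together. The 4 groups of 4 libraries were control pools 1 to 4 and pools 5 to 8, each as input, the lysate before precipitation, and as pulldown. In pools 5 to 8 the leptin receptor gene Lepr was deleted in the Pnoc-expressing cells. Both genotypes carried the L10a allele, were on a C57Bl/6N background, ate chow and were sampled random fed at 12 weeks of age, or 10 to 12 weeks per the extraction protocol, and each pool held 4 animals.

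Libraries held 64435952 to 78623636 estimated counts. The floor of 3 counts corresponded to 0.0469 to 0.0562 CPM in input and 0.0320 to 0.0395 CPM in pulldown, where CPM is the count scaled to library size with TMM factors and the floor covers counting error only. Lepr totals were 1.42 to 1.86 CPM in control pulldown and 2.42 to 2.82 CPM in Lepr-deletion pulldown. They were higher in input, at 3.49 to 5.11 CPM in control and 4.78 to 8.14 CPM in Lepr-deletion pools. A total over the whole gene cannot show which part was deleted, so it does not check the labels. Pnoc itself was at 7.28 to 10.1 CPM in control pulldown against 2.55 to 2.97 CPM in control input, and at 6.96 to 9.29 against 2.21 to 2.92 CPM in the Lepr-deletion pools. The 20 pan-neuronal genes summed to 18971 to 20117 CPM in control pulldown and 18407 to 19052 CPM in Lepr-deletion pulldown, against 12555 to 13575 CPM over the input libraries. The 12 astrocyte genes summed to 382 to 426 CPM in the pulldowns and to 2982 to 3691 CPM in the inputs, with none at 0. Pools 1 and 5 stood apart from the other pools of their genotype for many of the genes described here. The mean log2 CPM of the members was 5.41 in control pulldown pool 1 against 5.58, 5.62 and 5.68 in pools 2 to 4, and 5.53 in Lepr-deletion pulldown pool 5 against 5.35, 5.38 and 5.37 in pools 6 to 8. In input pools 1 and 5 likewise stood apart, with 5.43 in pool 1 against 5.59, 5.55 and 5.64, and 5.55 in pool 5 against 5.33, 5.34 and 5.36.

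Transcripts of every receptor class listed were present in the pulldown, and the levels spanned several orders of magnitude. The pulldown also held the astrocyte genes given above, and how much of any level came from other cells was not tested. Levels between genes are compared as TPM, which is per transcript length. In control pulldown the highest mean levels were those of Camk2a, the calcium-dependent kinase of the postsynaptic density, at 409 TPM and Dlg4, its main membrane-associated scaffold, at 399 TPM. Gria2, the AMPA subunit that makes the receptor impermeable to calcium, followed at 335 TPM. Over pools Camk2a ranged from 393 to 429 TPM and Dlg4 from 386 to 413 TPM, which overlap, whereas Gria2 ranged from 289 to 373 TPM and lay below both. Below them came Dlg2, a related scaffold, at 189 TPM, Slc17a6, the vesicular glutamate transporter of most hypothalamic glutamate neurons, at 160 TPM, and Shank1, which links Dlg-bound complexes to Homer, at 107 TPM. Dlg2 and Slc17a6 overlapped, at 171 to 199 and 150.2 to 175 TPM, and Shank1 did not reach them, at 91.4 to 119 TPM. At the lower end Grik4 was at 2.63, Slc17a8 at 0.521, Grin2c at 0.107, Homer3 at 0.0932 and Slc17a7 at 0.0653 TPM. Grm6, known for its role in retinal bipolar cells, had 5 counts in input of control pool 2 and 0 in the other 15 libraries.

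**Figure D1:**
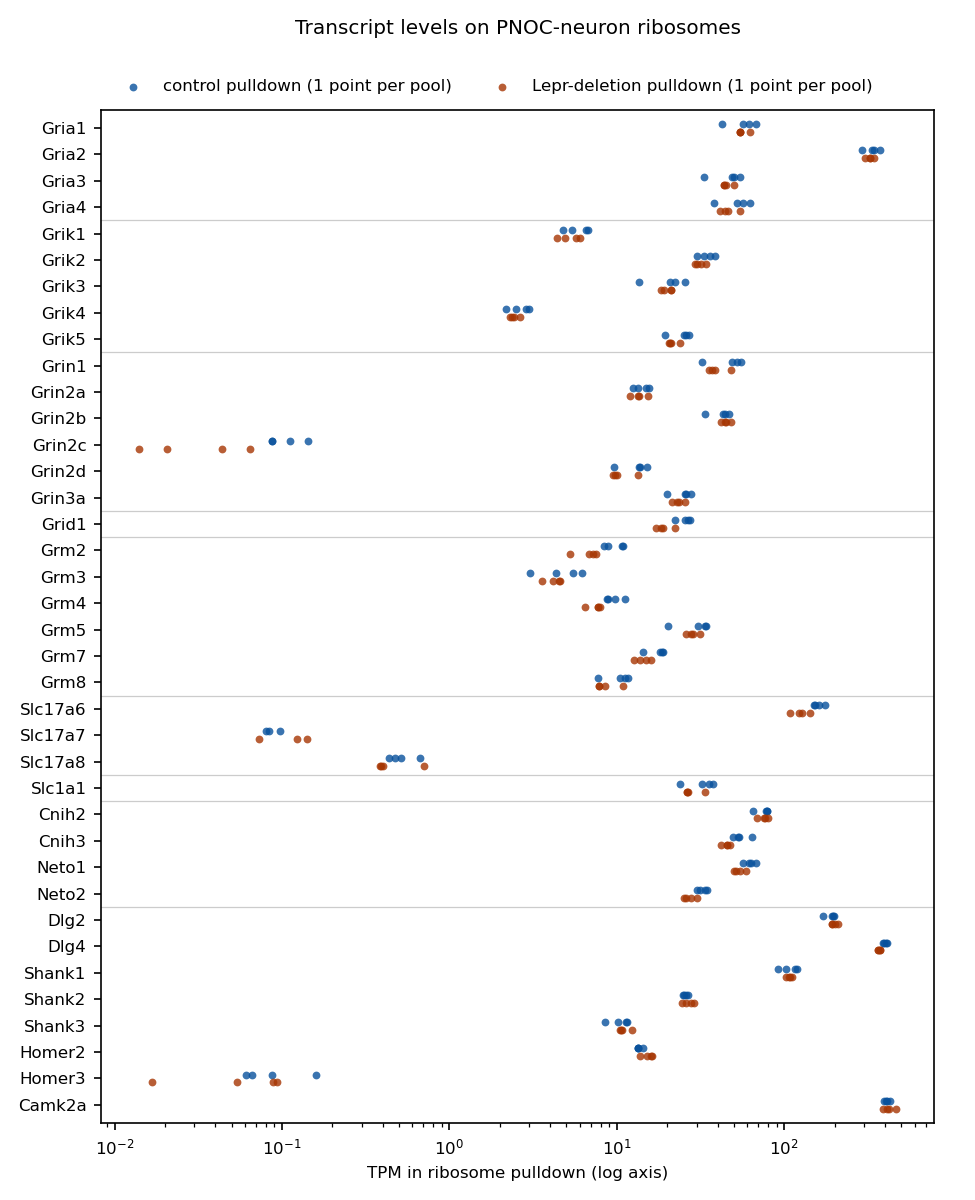
TPM of 38 members in pulldown on a log axis, 1 point per pool, blue for control and brown for Lepr deletion, ordered by class with grey lines between classes; Grm6 and values of 0 are not drawn. Camk2a, Dlg4 and Gria2 lie highest, at mean levels of 335 to 409 TPM in control pulldown, and Grin2c, Homer3 and Slc17a7 lowest.

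The first comparison asked which of these transcripts the precipitated ribosomes carried relative to the whole hypothalamus. In control pools 37 members were tested, of which 15 were higher and 8 lower in pulldown. Over all genes tested 64.8% passed in either direction, 30.1% higher and 34.6% lower. The members' median log2 fold change was 0.12, against -0.02 over all genes. In Lepr-deletion pools 18 of 38 members were higher and 9 lower, against 61.6% of all genes passing, 28.8% higher and 32.8% lower, with a member median of 0.16 and an all-gene median of -0.01. The all-gene median fell with transcript length, from 0.21 in the shortest of 5 equal classes to -0.23 in the longest in control pools. In Lepr-deletion pools it fell from 0.12 to -0.15. The longest class held 22 members in each comparison, with member medians of 0.02 and 0.16. The comparisons used different pools. The 14 members higher in both made up 93.3% of those higher in control and 77.8% of those higher after Lepr deletion. The 8 members lower in both made up 100% and 88.9%. The same overlap over all genes was not computed, so these shares do not single out the members. The libraries of pulldown and input did not overlap for 12 higher and 8 lower members in control pools, against 28.4% and 31.2% of all genes, and for 13 and 7 in Lepr-deletion pools, against 26.6% and 29.8%. These signs are relative to TMM scaling. When libraries were instead scaled to equal levels of the 20 pan-neuronal genes, Grm2, Grm4 and Neto2 were higher and 22 members lower in control pools, and Grm2 and Grm4 were higher and 25 members lower in Lepr-deletion pools. Of all genes 5.61% were then higher and 62.8% lower in control pools, and 3.32% and 66.6% in Lepr-deletion pools. With library totals 29 members were higher and 6 lower in each genotype, against 60.9% and 19% of all genes in control pools and 57.4% and 19.7% in Lepr-deletion pools. The call of a moderate rise or fall therefore depended on the scaling, and for the genes below that passed, a changed sign is given beside the value. Values that did not pass are given on TMM scaling alone, and of the 37 control values 14 were negative on that scaling, 6 with totals and 29 relative to the pan-neuronal genes. Fewer cells of a type and less RNA per cell cannot be told apart in these bulk samples.

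**Figure D2:**
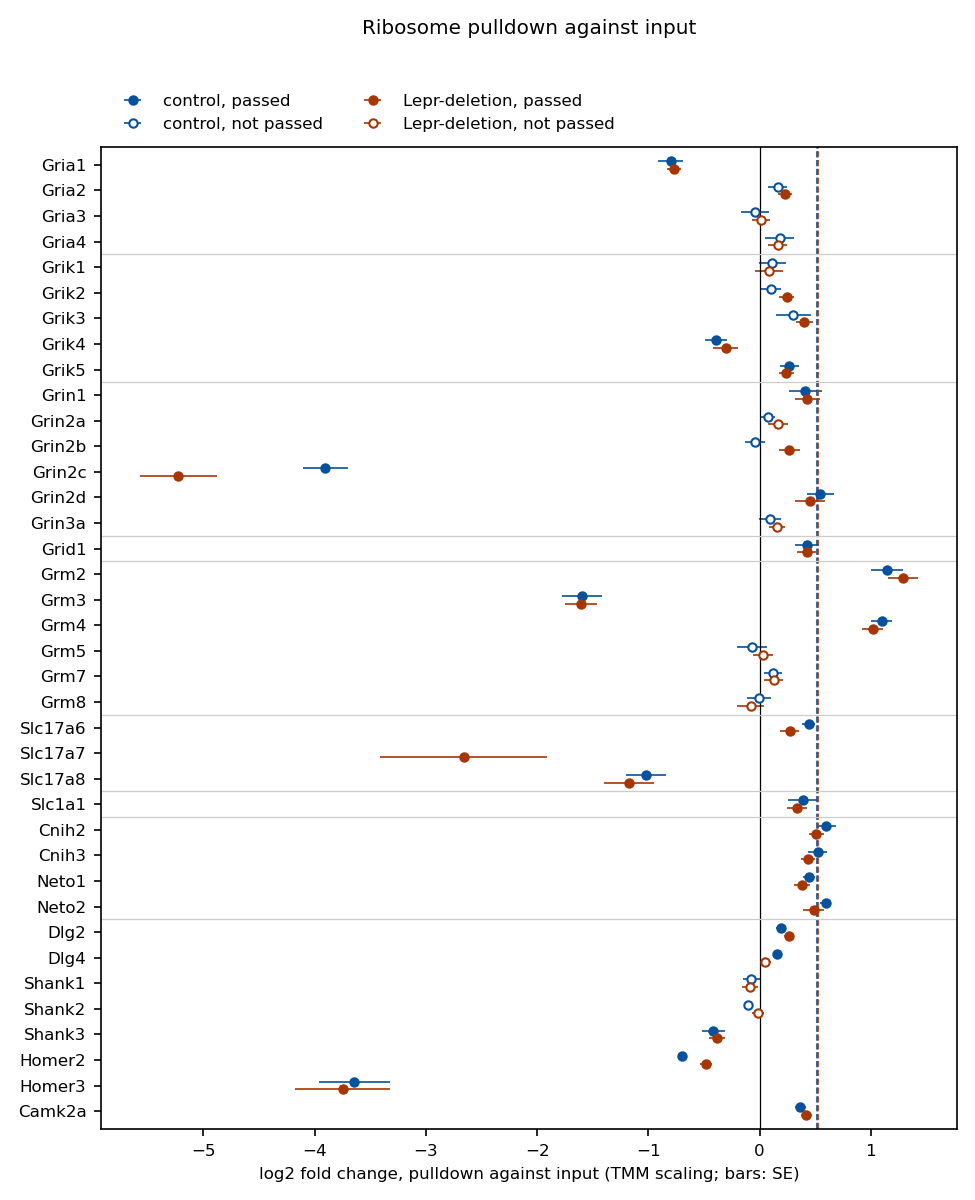
Log2 fold change of pulldown against input for 38 members with SE bars, in control (blue) and Lepr-deletion pools (brown), filled where the adjusted p was under 0.05; dashed lines mark the median of the pan-neuronal list, 0.51 and 0.52. Grm2 and Grm4 lie to the right of the dashed lines in both genotypes, and Grin2c, Homer3, Grm3, Slc17a8 and Gria1 lie far to the left of 0.

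Among the metabotropic receptors, Grm2 and Grm4 were higher in pulldown and Grm3 was lower. Grm2 encodes a receptor that lowers cyclic AMP and is found mainly in neurons. Its level was 9.57, 7.19, 6.58 and 6.28 CPM in input of control pools 1 to 4 and 20.8, 15.1, 14.3 and 16.01 CPM in their pulldown. In Lepr-deletion pools 5 to 8 it was 4.59, 4.28, 6.43 and 4.71 CPM in input and 14.1, 10.0, 12.8 and 12.3 CPM in pulldown. In each genotype every pulldown library lay above every input library, with log2 fold changes of 1.14 (SE 0.14, edgeR adjusted p = 2.78e-05) and 1.29 (SE 0.14, adjusted p = 2.38e-06). Grm4, a release-dampening receptor of the presynaptic terminal, was 8.80, 7.30, 8.27 and 8.08 CPM in control input and 21.1, 16.03, 15.8 and 17.5 CPM in control pulldown. It was 7.21, 6.16, 6.97 and 5.85 CPM in Lepr-deletion input and 14.4, 11.8, 13.6 and 13.5 CPM in Lepr-deletion pulldown. The groups again did not overlap, and Grm4 rose by 1.096 (SE 0.10) and 1.02 (SE 0.09). Relative to the pan-neuronal genes Grm2 was still higher by 0.71 and 0.84 and Grm4 by 0.67 and 0.57 on the log2 scale.

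Grm3, the closest relative of Grm2 and a receptor that astrocytes also express, went the other way. It had 14.4 to 20.2 CPM in control input and 3.72 to 7.26 CPM in control pulldown, and 11.9 to 19.6 against 4.06 to 5.44 CPM after Lepr deletion. Grm3 fell by 1.60 (SE 0.18) and 1.61 (SE 0.14) on the log2 scale. The summed astrocyte genes given above were lower in the same libraries, and their part in this result was not tested. Grm5, which couples to calcium release, Grm7 and Grm8 did not pass in either genotype, with values from -0.08 to 0.12. With the pool as a block, Grm7 passed in control pools at 0.12 (adjusted p = 0.04999).

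The metabotropic receptors thus made up a different mixture in pulldown than in input. Shares of the summed TPM of a family are given without a test. Grm2 took 5.22% ± 1.48 (SD, n = 4) of the metabotropic TPM in control input and 12.1% ± 2.76 in control pulldown. Grm4 took 5.52% and 12.1%, and Grm3 took 17.4% and 5.76%. Grm5 remained the largest part, with 39.2% in control input and 36.02% in control pulldown, and 39.8% and 40.7% after Lepr deletion.

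The upstream sequences of Grm2, the most strongly enriched member with a promoter entry, and of Grin2c and Homer3, described below as far lower in pulldown than in input, are shown because these genes mark the ends of the range. They come from windows of 250 bases before a transcript start, 5′ to 3′ on the gene's strand, from RefSeq with build GRCm38.p6. The window of Grm2 is whole, and those of Grin2c and Homer3 leave out the last 54 and 119 bases, which lie within the gene as annotated. Grm2 lies at chr9:106656110-106656359 on the minus strand, Grin2c at chr11:115267298-115267493 on the minus strand and Homer3 at chr8:70282749-70282879 on the plus strand. Capitals mark 3 motifs searched on both strands, namely TTCAGCACC, the first part of the RE1 element bound by the neuronal gene repressor REST, GGACAG, the second part, and GGGCGG, the GC box.
Grm2: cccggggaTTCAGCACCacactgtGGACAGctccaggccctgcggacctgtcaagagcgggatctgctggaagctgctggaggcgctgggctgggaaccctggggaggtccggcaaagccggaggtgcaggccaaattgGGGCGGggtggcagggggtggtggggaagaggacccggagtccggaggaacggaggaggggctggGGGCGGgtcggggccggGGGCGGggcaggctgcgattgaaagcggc
Grin2c: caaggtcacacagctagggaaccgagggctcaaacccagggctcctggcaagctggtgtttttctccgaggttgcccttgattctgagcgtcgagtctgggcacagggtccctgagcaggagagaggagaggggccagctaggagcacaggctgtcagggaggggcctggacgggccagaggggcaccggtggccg
Homer3: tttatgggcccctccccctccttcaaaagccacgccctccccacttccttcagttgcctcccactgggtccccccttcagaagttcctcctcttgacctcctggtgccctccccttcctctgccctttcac
In Grm2 the RE1 parts lay 242 to 234 and 226 to 221 bases before the start. TTCAGCACC was in 0.301% of the 32851 promoter windows of this length and, among the 37 windows of the 26 members with an entry, in that of Grm2. GGACAG was in 18.7% of all windows and in 7 of the 37. The GC box was in 32.7% of all windows and in 19 of the 37. These counts are over whole windows of 250 bases. Grin2c and Homer3 were among the members with a GC box, which in both lay within the bases left out above. The matches describe letters and not bound sites.

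Among the NMDA receptor genes, the obligatory subunit Grin1 and the subunit Grin2d were higher in pulldown and Grin2c was near the floor. Grin2c, a subunit known from cerebellum, thalamus and astrocytes, had 2.75, 2.83, 2.68 and 2.73 CPM in control input and 0.252, 0.150, 0.150 and 0.187 CPM in control pulldown. In Lepr-deletion pools it had 2.78, 2.23, 1.76 and 2.28 CPM in input and 0.0355, 0.0757, 0.0232 and 0.105 CPM in pulldown, those of pools 5 and 7 resting on 3 and 2 counts. No pulldown library reached the level of any input library, and Grin2c was lower by log2 values of -3.90 (SE 0.20) in control and -5.23 (SE 0.35) in Lepr-deletion pools.

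Grin1 was 41.4, 56.6, 55.7 and 59.2 CPM in control input and 50.6, 73.4, 79.7 and 82.3 CPM in control pulldown. The groups overlapped through pool 1, whose pulldown was below the inputs of pools 2 to 4. Grin1 rose by 0.41 (SE 0.15, adjusted p = 0.0301) in control and by 0.43 (SE 0.11) in Lepr-deletion pools, and stood at -0.02 in each genotype relative to the pan-neuronal genes. Grin2d, a slow-gating subunit of early development and of some inhibitory neurons, rose by 0.55 (SE 0.12) and 0.45 (SE 0.13). Grin2b, another NMDA subunit, rose by 0.27 (SE 0.09, adjusted p = 0.0231) in Lepr-deletion pools, or stood at -0.17 relative to the pan-neuronal genes. In control pools it was at -0.04 (SE 0.09) without passing. The difference of enrichment between genotypes for Grin2b was 0.30 (SE 0.14, adjusted p = 0.556). Grin2a and Grin3a did not pass, with values of 0.08 to 0.16. With the pool as a block Grin3a passed at 0.09 (adjusted p = 0.0336) in control and 0.15 (adjusted p = 0.0113) in Lepr-deletion pools, and Grin2a at 0.17 (adjusted p = 0.013) in the latter.

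Among the GluN2 subunits Grin2b made up 65.0% ± 1.22 of the TPM in control input and 60.5% ± 0.481 in control pulldown. Grin2d made up 12.9% ± 1.11 and 18.8% ± 1.03, and Grin2c 2.37% ± 0.122 and 0.161% ± 0.0640. In Lepr-deletion pools Grin2d made up 13.4% ± 1.16 in input and 15.4% ± 2.10 in pulldown, ranges that overlapped.

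Of the 4 AMPA subunits, Gria1 was lower in pulldown and Gria2 higher or level. Gria1, the subunit inserted during synaptic strengthening, was 193, 217, 217 and 233 CPM in control input and 95.8, 124, 134 and 147 CPM in control pulldown. In Lepr-deletion pools it was 191 to 219 CPM in input and 115 to 138 CPM in pulldown. The groups did not overlap in either genotype, and Gria1 fell by 0.80 (SE 0.11, adjusted p = 5.58e-05) and by 0.77 (SE 0.06, adjusted p = 2.33e-07), although on log2(TPM + 1) it stood at 0.17 and 0.12. Gria2 rose by 0.23 (SE 0.06, adjusted p = 0.00641) in Lepr-deletion pools and stood at -0.22 there relative to the pan-neuronal genes. In control pools it was at 0.16 (SE 0.08, adjusted p = 0.11), and with the pool as a block the same value passed (adjusted p = 0.000234). Gria3 and Gria4 did not pass. With the block Gria4 passed at 0.17 (adjusted p = 0.00455) and 0.16 (adjusted p = 0.00766).

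The mixture of AMPA subunits does not depend on the scaling between libraries. Gria1 made up 20.2% ± 0.843 of AMPA subunit TPM in control input and 11.5% ± 0.777 in control pulldown, and 21.1% ± 1.20 and 11.9% ± 0.386 after Lepr deletion. Gria2 made up 60.7% ± 0.450 and 68.4% ± 2.33, and 59.96% ± 0.981 and 68.7% ± 1.07. Each pulldown share of Gria2 was above each input share, whereas Gria3 stayed between 8.27% and 10.7% in all 16 libraries.

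**Figure D3:**
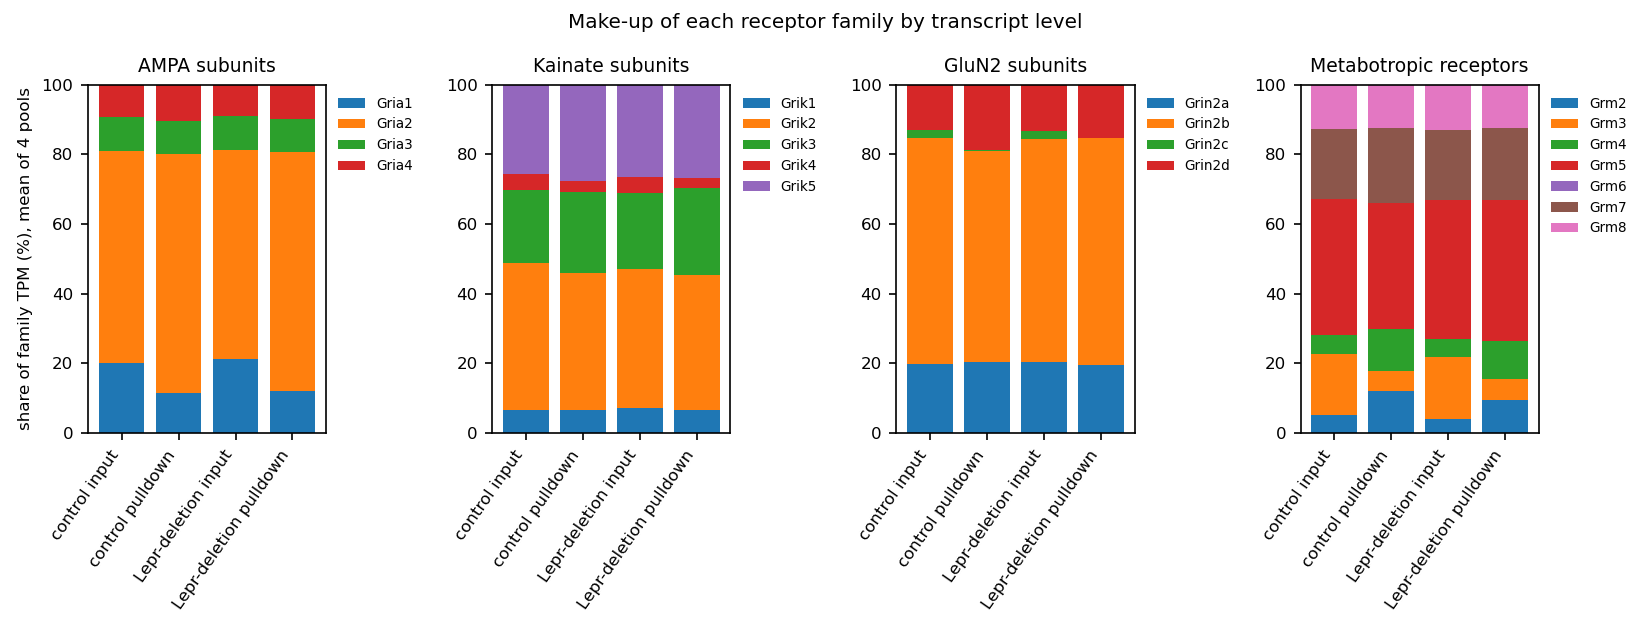
Stacked mean shares of family TPM (%) over 4 pools in each of the 4 groups, for AMPA, kainate, GluN2 and metabotropic genes. Gria1 shrinks from 20.2% in control input to 11.5% in control pulldown, Grm3 shrinks from 17.4% to 5.76%, and Grm2 and Grm4 widen to 12.1% each.

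Of the 5 kainate receptor genes 2 passed in control pools and 4 in Lepr-deletion pools, against 64.8% and 61.6% of all genes. Grik4, a high-affinity subunit, fell by 0.39 (SE 0.10) in control and by 0.31 (SE 0.11) in Lepr-deletion pools, although with library totals it stood at 0.16 and 0.15. Its partner in that class, Grik5, rose by 0.27 (SE 0.08) and 0.24 (SE 0.07), or stood at -0.16 and -0.21 relative to the pan-neuronal genes. Grik2 rose by 0.24 (SE 0.07) and Grik3 by 0.40 (SE 0.08) in Lepr-deletion pools, or stood at -0.20 and -0.04 relative to the pan-neuronal genes. In control pools they were at 0.11 and 0.30 without passing, and both passed with the pool as a block (adjusted p = 0.0424 and 0.00026). Grik1 was at 0.12 and 0.08. Grik2 held the largest share of kainate TPM, 42.0% in control input and 39.4% in control pulldown.

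Each of the 4 auxiliary subunits was higher in pulldown in both genotypes, as were the 1 delta receptor gene and the 1 plasma membrane transporter. So were 17 of the 20 pan-neuronal genes in each genotype. Of all genes 30.1% were higher in control and 28.8% in Lepr-deletion pools. Cnih2 and Cnih3, cornichon proteins that traffic AMPA receptors and slow their gating, rose by 0.60 (SE 0.09) and 0.52 (SE 0.09) in control pools. Neto1 and Neto2, which shape kainate receptor gating, rose by 0.44 (SE 0.06) and 0.59 (SE 0.05). Lepr-deletion pools gave 0.51, 0.44, 0.38 and 0.49 in the same order. Relative to the pan-neuronal genes they ranged from 0.01 to 0.17 in control pools, and from -0.07 to 0.06 in Lepr-deletion pools with Cnih3 and Neto1 below 0. Grid1, a delta subunit that binds cerebellin proteins across the synapse, rose by 0.42 (SE 0.11) in control and 0.42 (SE 0.09) in Lepr-deletion pools, or stood at -0.0045 and -0.03 relative to the pan-neuronal genes.

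Of the vesicular transporters, Slc17a6 was at a high level in pulldown, Slc17a8 at a low level and Slc17a7 near the floor. Slc17a6 was 191, 209.5, 193 and 211 CPM in control input and 312, 263, 258 and 273 CPM in control pulldown. In Lepr-deletion pools it was 203, 159.9, 169 and 172 CPM in input and 248, 189, 215 and 202 CPM in pulldown. The control groups did not overlap and the Lepr-deletion groups did, with rises of 0.44 (SE 0.06) and 0.27 (SE 0.09). Relative to the pan-neuronal genes the values were 0.01 and -0.18. The 8 GABAergic marker genes were also higher in pulldown, summing to 2670 to 3276 CPM in control pulldown against 1489 to 1758 CPM in control input. The 9 glutamatergic hypothalamic markers, of which Slc17a6 is 1 and a large part of the sum, summed to 513 to 568 against 372 to 401 CPM. Of these 9 markers 5 were higher and 3 lower in each genotype, whereas all 8 GABAergic markers were higher. Of all genes 30.1% were higher and 34.6% lower in control pools, and 28.8% and 32.8% in Lepr-deletion pools. Whether Pnoc-expressing cells carried Slc17a6, and which of them, cannot be told from pooled ribosomes.

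Slc17a8, the transporter of a small set of neurons, fell by 1.02 (SE 0.18) and 1.18 (SE 0.23), from 1.61 to 2.23 CPM over the inputs to 0.686 to 1.20 CPM over the pulldowns. Slc17a7, the transporter of cortical and thalamic neurons, was 0.115, 0.0961, 0.0920 and 0 CPM in control pulldown. In control input it was 3.21 CPM in pool 1 and 0.243, 0.178 and 0.0858 CPM in pools 2 to 4. It was too low to be tested there, and in Lepr-deletion pools it was lower in pulldown by -2.66 (SE 0.75, adjusted p = 0.00726) from inputs of 0.117 to 1.20 CPM. Slc17a6 made up 98.4% of vesicular transporter TPM in control input and 99.6% in control pulldown. Slc1a1, the neuronal uptake transporter, rose by 0.39 (SE 0.13) and 0.34 (SE 0.09), or stood at -0.04 and -0.11 relative to the pan-neuronal genes.

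The scaffold genes split. Homer3, a Homer protein prominent in cerebellar Purkinje cells, had 0.738 to 1.07 CPM in control input and 0.0534 to 0.103 CPM in control pulldown, and 0.622 to 0.797 against 0.0118 to 0.0791 CPM after Lepr deletion. It was lower in pulldown by -3.65 (SE 0.32) and -3.75 (SE 0.43). Homer2 was 100.5, 96.5, 96.9 and 100.6 CPM in control input and 62.5, 60.2, 60.5 and 63.6 CPM in control pulldown, a fall by 0.69 (SE 0.04). It fell by 0.48 (SE 0.05) in Lepr-deletion pools, although on log2(TPM + 1) it stood at 0.26 and 0.39. Shank3 fell by 0.42 (SE 0.10) and 0.38 (SE 0.07), although with library totals it stood at 0.13 and 0.07.

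Camk2a rose by 0.36 (SE 0.05) and 0.42 (SE 0.05), and Dlg2 by 0.19 (SE 0.04) and 0.26 (SE 0.04). Relative to the pan-neuronal genes Camk2a stood at -0.07 and -0.03, and Dlg2 at -0.24 and -0.19. Dlg4 rose by 0.16 (SE 0.04) in control pools, or stood at -0.27 relative to the pan-neuronal genes, and was at 0.05 without passing in Lepr-deletion pools. Shank1 and Shank2 did not pass, with values of -0.10 to -0.02. With the pool as a block they passed in control pools at -0.08 and -0.10 (adjusted p = 0.034 and 0.0342).

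Other genes of the pathway came from lists chosen with earlier results known. Over all genes 30.1% were higher and 34.6% lower in control pools, and 28.8% and 32.8% in Lepr-deletion pools, as given above. Of 24 other receptor and auxiliary genes tested in control pools 13 were higher and 5 lower, with a median of 0.26. Cbln4, a cerebellin ligand, was at 0.84 and Cacng3, an AMPA auxiliary subunit, at 0.60, while Nptx2, which clusters AMPA receptors, was at -1.14, Sorcs2 at -1.02 and Cnih4 at -0.46. Of 31 other postsynaptic density genes 14 were higher and 4 lower, including Dlg3 at 0.42, Agap2 at 0.35 and Dlgap4 at 0.29, and Kalrn at -0.76, Camk2g at -0.19 and Dlg1 at -0.14. Of 15 genes of glutamate supply and clearance 6 were higher and 6 lower. The higher ones included Gls2, a glutaminase, at 0.98, Got1 at 0.62 and Got2 at 0.56. The lower ones included the astrocytic uptake transporters Slc1a3 at -4.61 and Slc1a2 at -4.07 and glutamine synthetase, Glul, at -2.89. In Lepr-deletion pools the counts were 13 higher and 6 lower, 18 and 1, and 6 and 6.

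The second comparison asked how these transcripts differed in pulldown between Lepr-deletion and control pools. Of 36 members tested 1 was lower and 0 higher in Lepr-deletion pulldown, against 0.249% of all genes lower and 0.391% higher, 0.641% in either direction. By edgeR 11 members had an unadjusted p under 0.05, or 19.8% of all genes. DESeq2 called 7 members lower and 0 higher, against 3.02% and 4.22% of the genes to which it gave an adjusted p. The authors' deposited table likewise listed 7 of 35 members lower. Values were negative for 30 of 36 members and for 52.4% of all genes, with medians of -0.14 and -0.01.

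Grid1 was the member that passed. It was 55.2, 63.6, 61.4 and 63.5 CPM in control pulldown pools 1 to 4 and 52.7, 41.5, 41.7 and 42.7 CPM in Lepr-deletion pulldown pools 5 to 8. The groups did not overlap, although pool 5 lay near pool 1, and Grid1 fell by 0.44 (SE 0.08, edgeR adjusted p = 0.0487). Removing any one of pools 2, 3, 4, 6, 7 or 8 left values of -0.41 to -0.43 that no longer passed (adjusted p = 0.112 to 0.197). Removing pool 5 gave -0.54 (adjusted p = 0.00388) and removing pool 1 gave -0.49 (adjusted p = 0.0182). In input Grid1 was 34.1, 50.98, 47.2 and 47.1 CPM in control and 34.3, 30.3, 30.6 and 37.1 CPM in Lepr-deletion pools, a value of -0.44 (SE 0.11, adjusted p = 0.122) with overlap through pool 1. The lower Grid1 value was thus of equal size in total hypothalamic RNA, and its difference of enrichment between genotypes was -0.01 (SE 0.15).

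In 6 further members the pulldown groups did not overlap, and all were lower without passing by edgeR on the 8 pulldown libraries. Groups of 7 members were thus separate in that direction, against 4.92% of all genes. Slc17a6, whose values stand above, was at -0.36 (SE 0.08, adjusted p = 0.0684). Grm4 was at -0.38 (SE 0.09, adjusted p = 0.0823), Grm2 at -0.41 (SE 0.12, adjusted p = 0.111) and Cnih3 at -0.31 (SE 0.08, adjusted p = 0.094). In the same pulldowns the 9 glutamatergic hypothalamic markers summed to 443 to 518 CPM after Lepr deletion against 513 to 568 CPM in control. The 8 GABAergic markers summed to 3274 to 3575 against 2670 to 3276 CPM. Slc17a6 is 1 of the 9 and a large part of their sum, so its own lower value enters that sum. Values were negative for 6 of the 9 and 3 of the 8, and 0 passed in either list. The part of these markers in the values above was not tested. Unlike Grid1, Slc17a6, Grm4, Grm2 and Cnih3 were highest in pool 1 among control pulldowns. Neto2 had 70.9, 75.8, 71.1 and 77.4 CPM in control pulldown and 68.6, 57.5, 61.5 and 56.3 CPM in Lepr-deletion pulldown, at -0.26 (SE 0.07, adjusted p = 0.0831). Grin2c was at -1.60 (SE 0.48, adjusted p = 0.111) from 13 to 22 counts in control and 2 to 8 counts in Lepr-deletion pulldown. In the authors' deposited DESeq2 comparison Slc17a6, Grm4, Neto2, Cnih3 and Grm2 passed (adjusted p = 0.00228, 0.00721, 0.00931, 0.0126 and 0.0237). Grin2c had no adjusted p there. With 16 libraries in one edgeR fit Slc17a6, Grm4, Cnih3 and Grin2c passed, and Grm2 and Neto2 did not.

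**Figure D4:**
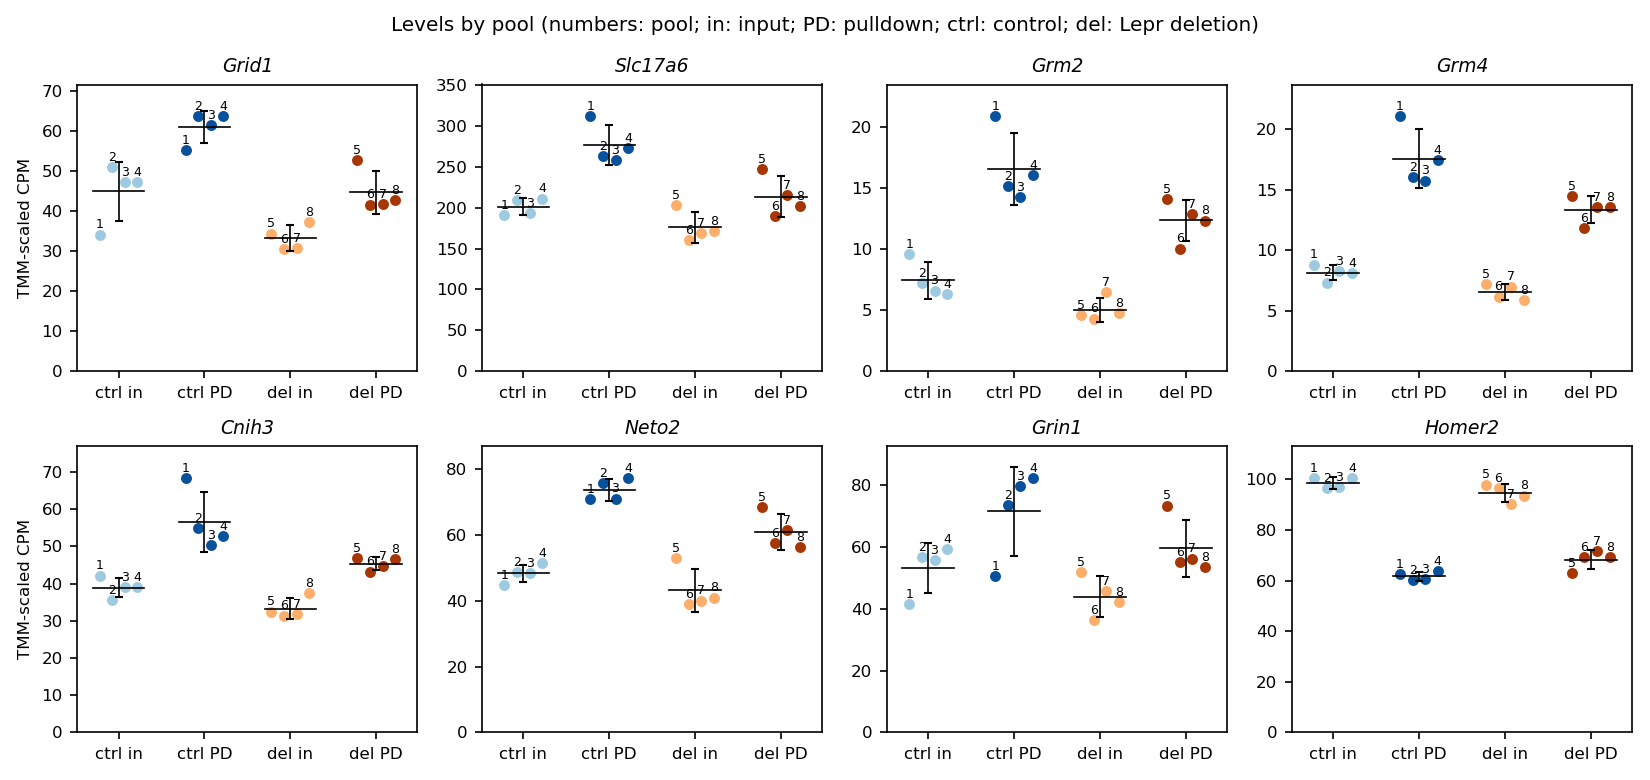
TMM-scaled CPM of 8 members in each library, with the pool number at each point, the group mean as a line and the SD as a bar (n = 4). In Grid1 and Grin1 pool 1 is the lowest control pulldown and pool 5 the highest Lepr-deletion pulldown, whereas in Slc17a6, Grm2, Grm4 and Cnih3 pool 1 is the highest control pulldown.

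The signs are given by class as a description, with no test between classes. In pulldown all 4 AMPA, all 5 kainate, all 6 tested metabotropic and all 4 auxiliary genes had negative values, and 5 of 6 NMDA genes did, with medians of -0.04, -0.12, -0.24, -0.24 and -0.18. Of the 7 tested scaffold and kinase genes 2 were negative, with a median of 0.05. Homer2 was 62.5, 60.2, 60.5 and 63.6 CPM in control and 62.8, 69.4, 71.6 and 69.2 CPM in Lepr-deletion pulldown, at 0.16 (SE 0.05, adjusted p = 0.127), with overlap through pool 5. Grin2b was at 0.13 (SE 0.08, adjusted p = 0.393). Among the pathway lists none of the genes passed, with negative values in 24 of 24 other receptor and auxiliary genes, 14 of 31 other postsynaptic density genes and 6 of 15 supply and clearance genes.

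In input most values were also negative. Of 38 members 0 passed by edgeR, against 0.231% of all genes, 0.135% higher and 0.0959% lower, although 10 had an unadjusted p under 0.05, or 14% of all genes, and DESeq2 called 2 lower, Grm2 and Grid1, and 0 higher, against 1.08% and 1.17% of genes. Values were negative for 35 of 38 members and 50.7% of all genes, with a member median of -0.16. Scaffold and kinase genes were negative in 6 of 8, with Homer2 at -0.06, and Grin2b was at -0.18. Of the other postsynaptic density genes 21 of 31 were negative. Grm2 was at -0.56 (SE 0.16, adjusted p = 0.165) and Grm4 at -0.31 (SE 0.10, adjusted p = 0.214). Grm4 was the 1 member whose input groups did not overlap, against 2.82% of all genes separate in that direction. Input and pulldown of a pool come from the same animals, so these are not independent observations.

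Removing pools 1 and 5, which were singled out from the levels in these same data, moved the counts far more than any other choice. In pulldown 22 members were then lower and 1, Homer2 at 0.20, was higher, and in input 20 were lower and 0 higher. Of all genes, 10.5% were then lower and 9.35% higher in pulldown, and 6.67% and 4.3% in input. Grin1 moved from -0.25 to -0.51, Grin2d from -0.27 to -0.52 and Slc1a1 from -0.21 to -0.43 in pulldown. Grm2 moved from -0.41 to -0.36, Grm4 from -0.38 to -0.33, Slc17a6 from -0.36 to -0.38 and Cnih3 from -0.31 to -0.22. The counts without these pools are a description, since the removal follows the levels compared. Transcript length was also examined, because 22 of the 36 members tested in pulldown lie in the longest of 5 equal length classes. In that class the median of all genes was 0.05 and that of the members -0.10 in pulldown, and -0.04 and -0.16 in input.

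**Figure D5:**
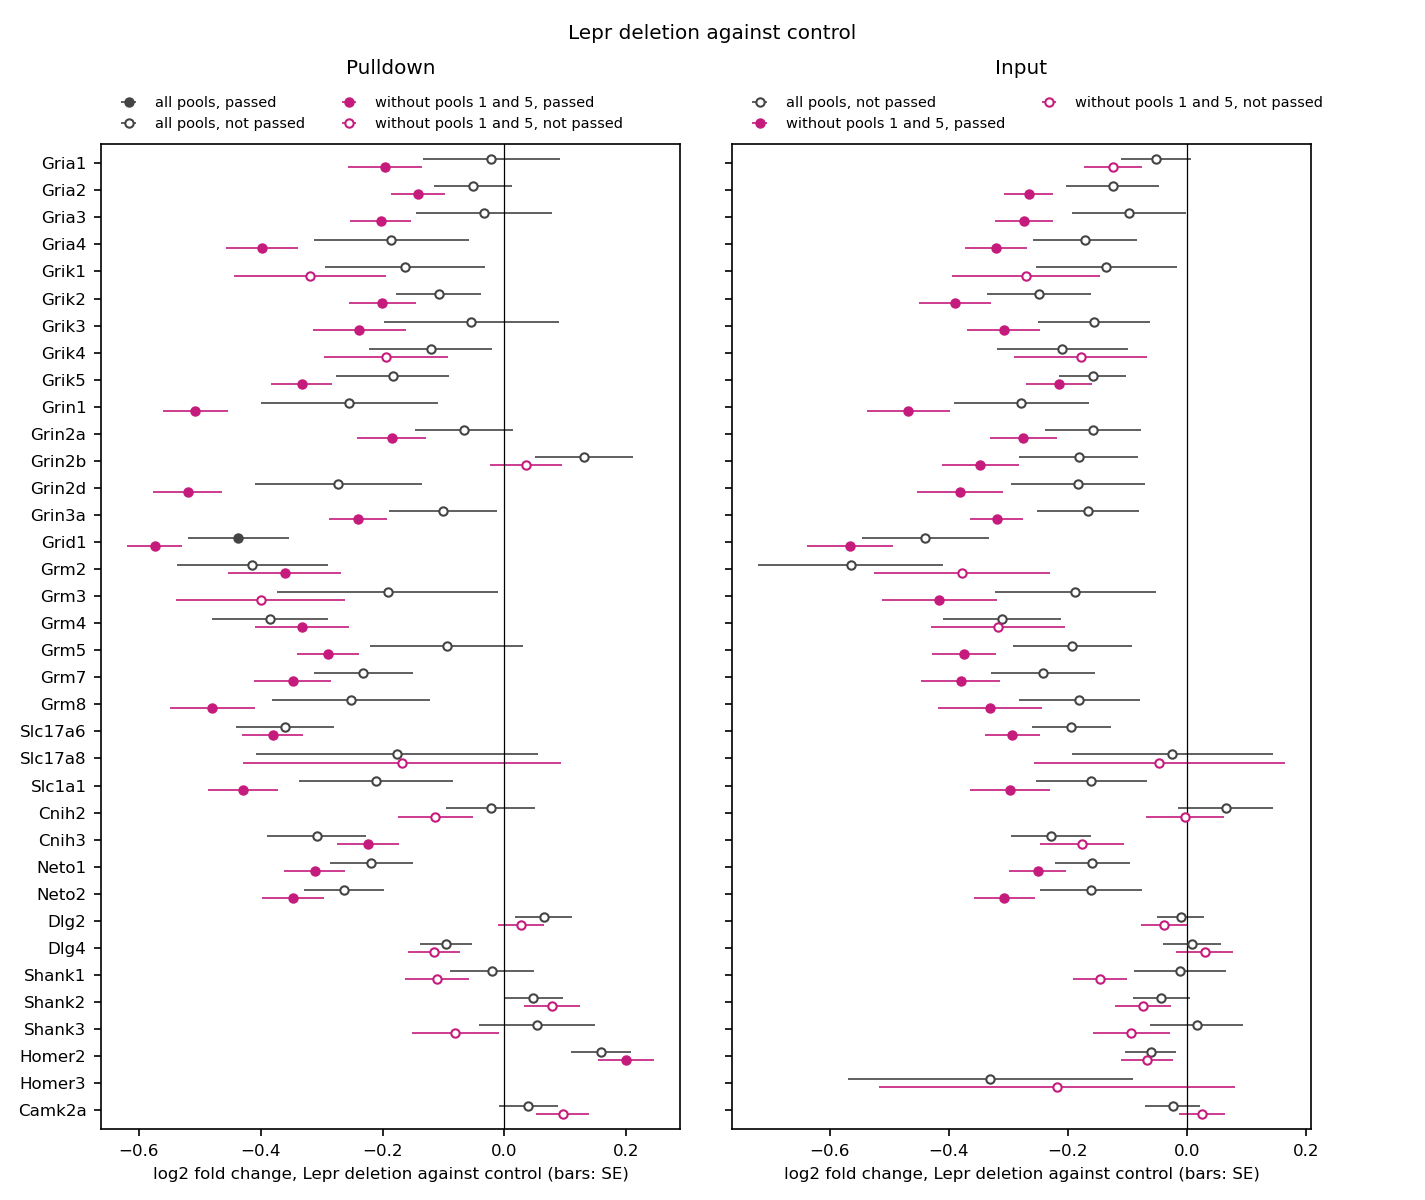
Log2 fold change of Lepr deletion against control with SE bars in pulldown (left) and input (right), with all pools (grey) and without pools 1 and 5 (pink), filled where the adjusted p was under 0.05; Grin2c, Slc17a7 and Grm6 are not drawn. With all pools Grid1 in pulldown is the filled grey point, and most receptor genes lie left of 0 while Dlg2, Shank2 and Camk2a lie near 0.

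The last comparison asked whether the enrichment itself differed between genotypes. None of 38 members passed by edgeR, against 0.0108% of all genes, and none by DESeq2, against 0.194%. At an unadjusted p under 0.05 there were 2 members, Grin2c at -1.33 (SE 0.40, adjusted p = 0.401) and Homer2 at 0.21 (SE 0.06, adjusted p = 0.404), against 8.96% of all genes. The median over the members was -0.01.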

How the data were processed

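The submitters' processing notes name Salmon 1.10.1, DESeq2 1.38.3 and build GRCm38. Strand setting and annotation release are not given in the sources used here. Near-identical, overlapping and antisense genes therefore remain uncertain. Estimated counts deposited by the authors were rounded to whole numbers. The authors also deposited counts scaled for length, TPM, and log2 fold changes with adjusted p-values of their own comparisons.

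Counts were tested with edgeR 4.0.16 (quasi-likelihood, R 4.3.3) on TMM scaling and genes passing filterByExpr (at least 10 counts, total at least 15), with Benjamini-Hochberg adjustment over all genes at 0.05, two-sided. Each pair of groups was fitted on its 8 libraries, and the difference of enrichment on all 16. Alternatives were limma 3.58.1 on log2(TPM + 1) and log2(TPM + 0.1), DESeq2 1.42.0, other scalings, filters, the pool as a block and removal of libraries. The test was checked on simulated data.

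The members, lists and the rule that all 39 members are named, with up to 3 passing genes per direction from each pathway list, were chosen with earlier results of these data known. For 1 gene that this rule names, no value is reported here. Input and pulldown of a number share a lysate per the labels' protocols, so the numbers pair these libraries. Same-numbered libraries deviated together with correlations of 0.042 to 0.400, above 0.1 in 5 of 8 pairs. Pools are separate sets of animals, and libraries of a group differed beyond counting noise (chi-square over its degrees of freedom 7.76 to 46.5). Positions and promoters came from RefSeq, GRCm38.p6.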

Additional observations from a re-analysis of the deposited data

Results flagged for a closer look

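In 18 of 156 sets of 4 libraries (39 members in 4 groups) 1 library lay far from the other 3. Chance flags about 1 set in 20, or 7.8 of 156, and the sets share libraries. Pool 5 was the distant library in 11 of them and pool 1 in 5.

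In Lepr-deletion input, pool 5 was high for Gria2 at 533 CPM, Gria3 at 103, Gria4 at 94.4 and Neto2 at 53.0 CPM, against at most 453, 83.0, 78.7 and 41.0 CPM in pools 6 to 8. In Lepr-deletion pulldown, pool 5 was high for Grik5 at 36.6, Grin1 at 73.3, Grin2d at 28.4 and Grid1 at 52.7 CPM. It was also high there for Grm8 at 13.4, Slc1a1 at 50.5 and Shank1 at 322 CPM.

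In control input, pool 1 was low for Grin3a at 57.3 and Grm7 at 18.2 CPM and high for Slc17a7 at 3.21 CPM, where the others had at most 0.243. In control pulldown, pool 1 was low for Cnih2 at 29.1 and Dlg2 at 291 CPM. Grm6 had 0.0936 CPM in input of control pool 2 and 0 elsewhere. Slc17a8 had 1.20 CPM in Lepr-deletion pulldown of pool 8, against at most 0.703 in pools 5 to 7.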

How the results depend on the processing

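Enrichment depended on scaling. The median of all genes in control and Lepr-deletion pools moved to 0.53 and 0.44 with library totals, to 0.75 and 0.70 on log2(TPM + 1), and to -0.45 and -0.46 with pan-neuronal scaling. Members higher and lower were 29 and 6 with totals, 32 and 3 on log2(TPM + 1) and on log2(TPM + 0.1), in each genotype. With pan-neuronal scaling they were 3 and 22 in control and 2 and 25 in Lepr-deletion pools. On log2(TPM + 1) 15077 of 17570 genes passed in control pools, 12709 of them higher. In Lepr-deletion pools 14690 of 17423 passed on that scale, 12349 of them higher. On log2(TPM + 0.1) 15073 and 14707 passed, 12685 and 12338 of them higher. Of all genes passing in control pools, 46.5% were higher with TMM, 76.2% with totals, 84.3% on log2(TPM + 1) and 8.2% with pan-neuronal scaling.

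Of 51 values that passed, 28 changed sign under at least 1 alternative, 11 in control and 17 in Lepr-deletion enrichment. With totals these were Shank3 at 0.13 and Grik4 at 0.16 in control and at 0.0723 and 0.15 in Lepr-deletion pools. On log2(TPM + 1) control values were Gria1 0.17, Shank3 0.52, Homer2 0.26 and Grik4 0.35, and Lepr-deletion values 0.12, 0.49, 0.39 and 0.40. On log2(TPM + 0.1) the same genes were at 0.17, 0.57, 0.28 and 0.49, and at 0.12, 0.54, 0.41 and 0.57. With pan-neuronal scaling the control values were Grik5 -0.16, Dlg4 -0.27, Camk2a -0.0682, Slc1a1 -0.0400, Grin1 -0.0234, Grid1 -0.0045 and Dlg2 -0.24. The Lepr-deletion values were Grik3 -0.0442, Grik5 -0.21, Camk2a -0.0257, Slc1a1 -0.11, Cnih3 -0.0126, Grin1 -0.0198, Grin2b -0.17, Slc17a6 -0.18, Gria2 -0.22, Grid1 -0.0278, Neto1 -0.0694, Dlg2 -0.19 and Grik2 -0.20. Under each of these scalings the median of all genes moved in the same direction as these values. Values that had not passed did so with the opposite sign in 41 pairs of value and alternative.

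For Lepr deletion in pulldown, members lower were 5 with no filter, 7 with DESeq2, 5 with 16 libraries in one fit, 22 without pools 1 and 5, and 0 with length-scaled counts and on either TPM scale. Members higher were 1 without pools 1 and 5. In input, members lower were 2 with no filter, 2 with DESeq2 and 20 without pools 1 and 5. The cause was not tested. Leaving out 1 library gave 0 to 8 lower and 0 to 1 higher in pulldown, 0 to 3 lower in input, 13 to 18 higher and 8 to 9 lower in control enrichment, and 17 to 21 and 8 to 9 in Lepr-deletion enrichment. Genes passing in pulldown were 108, but 1050 with DESeq2, 266 with no filter, 508 with 16 libraries, 16 with length-scaled counts, 30 and 22 on the TPM scales and 3363 without pools 1 and 5. In input 41 passed, but 359 with DESeq2, 261 with no filter, 108 with totals and 1957 without pools 1 and 5. With 1 library left out, 19 to 1262 genes passed in pulldown and 19 to 402 in input. For enrichment 10812 to 11613 then passed in control and 10095 to 10753 in Lepr-deletion pools.

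With the pool as a replicate block, members higher and lower were 21 and 10 in control and 21 and 9 in Lepr-deletion pools. The calls it changed are given in the report. Of all genes 12178 of 17570 then passed in control pools, 5824 of them higher. In Lepr-deletion pools 11054 of 17423 passed, 5250 of them higher. The share of genes higher moved from 61.1% to 39.5% in pulldown with totals, and from 58.5% to 87.0% in input. Depth limits Slc17a7, Grin2c, Homer3 and Grm6, which lie near the floor.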
